A study of Mus musculus with 20 samples.

Results

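The mitochondrially encoded genes were described across keratinocyte libraries of 20 mice. Members were the rows of the count table whose gene symbol starts with mt-, and 13 of 25719 rows met this rule. All 13 were protein-coding genes, so the mitochondrial rRNAs and tRNAs were not analysed here. The mice came in 4 groups of 5, defined by genotype and by the route of tamoxifen. Knockout mice (cKO) were K14-CreERTam x Cyp11b1 L2/L2, in which a tamoxifen-activated Cre under the keratin 14 promoter, which is active mainly in basal keratinocytes, deletes Cyp11b1, the enzyme of the last step of corticosterone synthesis, in keratinocytes. Controls were littermates that were Cyp11b1 L2/L2 without Cre, so both genotypes carried the floxed alleles and both received tamoxifen for 5 days. Topical groups received it on the skin (20 µl on the ear and 100 µl on the back, with the back shaved), and systemic groups received it intraperitoneally (100 µl of 10 mg/ml). Keratinocytes were sorted from ear and dorsal skin on day 6, and total RNA of 2 M cells per mouse was made into SmartSeq II libraries. Libraries are named by group and the number in the label. The ages of the mice are not given in the sources used here.

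The mammalian mitochondrial genome is a small circle present in many copies per cell. It encodes subunits of respiratory complex I (the mt-Nd genes), of complex III (mt-Cytb), of complex IV (mt-Co1, mt-Co2 and mt-Co3) and of ATP synthase (mt-Atp6 and mt-Atp8), and all other subunits of these complexes are encoded in the nucleus. Both strands are transcribed as long precursors that are cut, mostly at tRNAs, into mRNAs. mt-Nd6 is the only protein-coding gene whose mRNA comes from the other strand. The ranges of mt-Atp8 and mt-Atp6 overlap by 43 bases, and those of mt-Nd4l and mt-Nd4 by 7, on the same strand. No tRNA lies between the genes of such a pair, so their counts need not be those of separate mRNAs. Copies of mitochondrial DNA have been inserted into nuclear chromosomes during evolution, and a read that matches both places equally well cannot be assigned to either from its sequence.

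Annotated copies of this kind cover all or part of several of the 13 genes. In GENCODE M21 on GRCm38, the build that the submitters' processing notes name, 7 unprocessed pseudogenes on the minus strand of chr1:24611535-24616197, a span of 4663 bases, are copies of neighbouring mitochondrial genes. Gm28661 carried 681 of 681 aligned bases of mt-Co2, Gm10925 carried 678 of 678 of mt-Atp6, Gm28437 carried 783 of 783 of mt-Co3, and Gm10222 carried 294 of 294 of mt-Nd4l. Gm28439 carried the first 876 bases of mt-Nd4 without a mismatch, and Gm29216 carried the last 492 bases of mt-Co1 with 486 identical. Gm28438 carried the first 345 bases of mt-Nd3 with 344 identical. mt-Nd3 is a complex I subunit gene and the only member called in the edgeR comparisons first given below. Its first 180 bases and its end from base 289 are printed beside the copy because so little separates them. Capitals mark the differing base (T3C, counted from 1 at the 5′ end of the gene, mitochondrial base first) and the 3 last bases of mt-Nd3, which lie outside the copy (mt-Nd3 at MT:9459-9806, plus strand, and Gm28438 at chr1:24612775-24613119, minus strand). The base at position 3 has been reported to differ between C57BL/6 substrains, and the substrain of these mice is not given in the sources used here. Part of what sets mt-Nd3 apart from the copy rests on this base, so every mt-Nd3 value below holds only for reads as they were counted.
mt-Nd3, bases 1 to 180: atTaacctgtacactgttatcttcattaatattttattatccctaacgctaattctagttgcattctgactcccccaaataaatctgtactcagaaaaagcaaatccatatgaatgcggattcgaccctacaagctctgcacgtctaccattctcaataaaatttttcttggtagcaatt
Gm28438, bases 1 to 180: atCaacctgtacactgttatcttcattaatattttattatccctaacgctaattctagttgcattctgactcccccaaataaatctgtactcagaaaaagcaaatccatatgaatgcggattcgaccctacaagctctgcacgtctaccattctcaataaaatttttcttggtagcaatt
mt-Nd3, bases 289 to 348: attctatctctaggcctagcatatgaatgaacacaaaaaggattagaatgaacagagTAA
Gm28438, bases 289 to 345: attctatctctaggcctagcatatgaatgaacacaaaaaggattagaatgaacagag
The first 120 bases of mt-Co2, a complex IV subunit gene, are shown with those of its copy as the case without any difference (MT:7013-7132, plus strand, and chr1:24615446-24615565, minus strand).
mt-Co2: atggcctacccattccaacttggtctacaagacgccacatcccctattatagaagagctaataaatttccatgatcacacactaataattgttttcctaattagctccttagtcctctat
Gm28661: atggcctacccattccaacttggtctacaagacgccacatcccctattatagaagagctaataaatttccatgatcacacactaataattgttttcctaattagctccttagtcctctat
A diverged copy is shown for contrast. Bases 706 to 825 of mt-Nd5, the longest member, are set against the processed pseudogene Gm4076, with the 6 differing bases A735G, T771C, C774T, C789T, C795A and G801A in capitals (MT:12447-12566, plus strand, and chr13:85127395-85127514, minus strand).
mt-Nd5: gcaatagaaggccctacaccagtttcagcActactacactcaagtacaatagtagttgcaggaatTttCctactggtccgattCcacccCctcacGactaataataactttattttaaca
Gm4076: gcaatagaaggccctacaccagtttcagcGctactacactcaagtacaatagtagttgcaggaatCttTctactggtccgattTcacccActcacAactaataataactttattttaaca

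The members that matched nuclear transcripts over nearly their whole length had few counts, whereas among the other members counts did not follow the extent of the match. Each gene was split into all its overlapping windows of 100 bases, and a window was called shared when the same bases occurred in an annotated nuclear transcript on either strand. Of these windows 99.5% were shared in mt-Co2, 99.5% in mt-Atp6, 99.9% in mt-Co3 and 98.5% in mt-Nd4l. Summed over all 20 libraries, these genes had 4, 32, 66 and 186 counts. The share was 97.6% in mt-Nd3, where 6 of 249 windows were its own, and it had 11183 counts. It was 60.8% in mt-Nd4 with 736522 counts, 30.8% in mt-Co1 with 8294406 counts, the most of all members, and 3.19% in mt-Nd2 with 185803 counts. No window was shared in mt-Nd1, mt-Cytb, mt-Nd5 and mt-Nd6, which had 4633136, 3328800, 653941 and 72871 counts, so the unshared mt-Nd5 and mt-Nd6 had fewer counts than mt-Nd4. With windows of 50 bases the share was 51.1% in mt-Co1, 8.19% in mt-Nd2 and 7.61% in mt-Nd5, and still 0 in mt-Nd1, mt-Cytb and mt-Nd6. mt-Atp8, a small ATP synthase subunit gene of 204 bases, had no shared window of either length and 10 counts. It has no annotated copy in the nuclear run, but it lies between mt-Co2 and mt-Atp6, and the run leaves 233 bases unannotated between the copies of those genes. Of its 204 bases, 43 also lie in mt-Atp6 on the same strand. How reads in such an overlap were counted is not given in the sources used here, and its part was not tested. Whether reads with more than 1 match were discarded is not given in the sources used here, and the genome sequence between annotated transcripts was not searched, so the part of multiply matching reads in these counts was not tested. Counts of the pseudogenes were not analysed here.

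**Figure D1:**
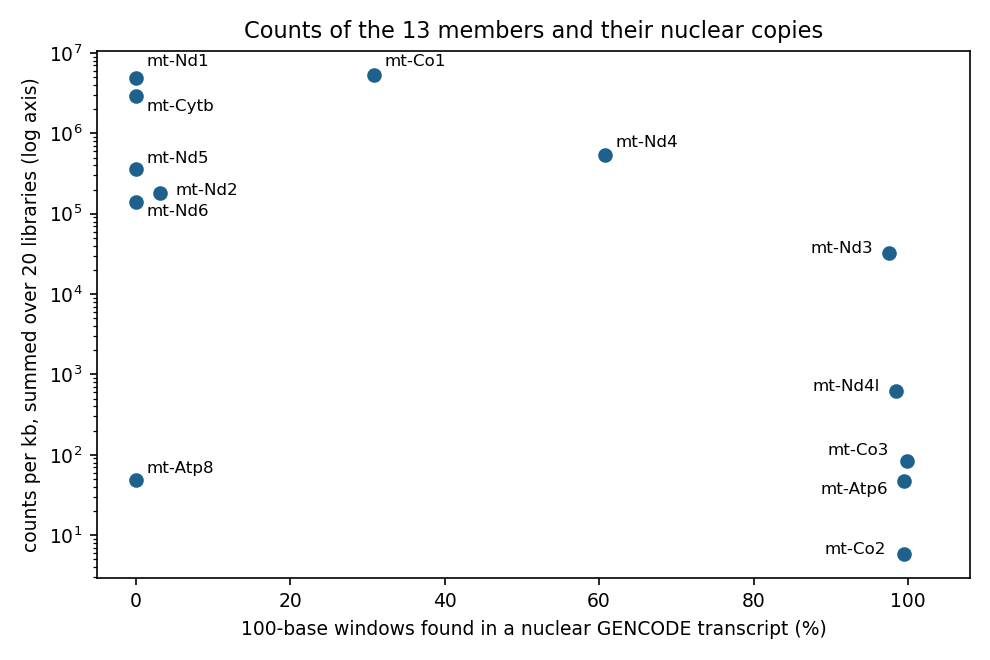
Counts per kilobase of gene length, summed over the 20 libraries (vertical log axis), against the percent of 100-base windows of the gene that also occur in an annotated nuclear transcript (horizontal axis). Each point is 1 of the 13 members; the 5 members at 97.6% or more lie below the other members except mt-Atp8, which has no shared window and 10 counts.

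In 5 genes the counts were too few to compare levels. Together mt-Co2, mt-Atp8, mt-Atp6, mt-Co3 and mt-Nd4l held 298 of 17916960 mitochondrial counts, that is 0.00166%. In single libraries the highest counts were 2 for mt-Co2, 2 for mt-Atp8, 9 for mt-Atp6, 8 for mt-Co3 and 22 for mt-Nd4l. mt-Co2 had no count in 17 libraries, mt-Atp8 in 12, mt-Atp6 in 6, and mt-Co3 and mt-Nd4l in 2 each. A library at 0 allows up to 3 counts, with counting error alone. No fold change is given for the 4 of them that did not pass the filter on low counts.

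Among the 8 well-counted genes, levels per length spanned a wide range. Levels are CPM, that is, counts scaled to a common library size with TMM factors, divided by the annotated gene length in kilobases. mt-Co1, the catalytic subunit gene of complex IV, was highest at 13016 ± 3488 CPM per kilobase (mean ± SD, n = 20). mt-Nd1 of complex I followed at 11430.5, mt-Cytb of complex III at 6916, mt-Nd4 at 1277, mt-Nd5 at 840.5, mt-Nd2 at 417, mt-Nd6 at 329.7 and mt-Nd3 at 74.8 CPM per kilobase. mt-Co1 was above mt-Nd1 in 18 of 20 libraries and mt-Nd2 above mt-Nd6 in 19. Each of the other neighbours in this order kept its place in 20 of 20 libraries. Across libraries the ranges of neighbours overlapped except for mt-Cytb above mt-Nd4, where they were separate. mt-Nd1, mt-Co1 and mt-Cytb made up 90.7% of all mitochondrial counts, and mt-Nd4 and mt-Nd5 made up 7.76%. Because mt-Co1, mt-Nd4, mt-Nd3, mt-Nd2 and, with the shorter windows, mt-Nd5 have shared windows, their levels relative to the other genes hold only for reads as they were counted.

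The libraries had the profile of keratinocytes, with few counts of other skin cells. Totals ran from 11.6 to 50.1 M counts, with a median of 17.1 M. The keratinocyte markers Krt5, Krt14, Krt15, Krt1, Krt10, Trp63, Dsg3 and Col17a1 summed to between 82883 and 116518 CPM of the library total. Marker lists of other skin cells reached at most 33.7 CPM for immune cells, 32.0 for fibroblasts, 35.0 for melanocytes, 8.11 for endothelium, 7.25 for erythroid cells, 7.68 for skeletal muscle, 48.7 for adipocytes, with the brown fat gene Ucp1 at 0 in all 20, and 399 for sebaceous cells. Counts of the targeted gene Cyp11b1 were 0 to 6 per library, with 11 of 20 libraries at 0 and controls at 0 to 5, so they could not check the genotype labels. A list of 10 genes induced by tissue dissociation differed by route, with 24464 to 34341 CPM in topical and 37955 to 57137 CPM in systemic libraries. The summed level of 12 predicted genes with satellite-like transcripts was 77.3 to 36415 CPM in 6 libraries, which were the 5 systemic controls and systemic cKO 2, and at most 41.3 CPM in the other 14.

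The share of all counts that came from the 13 genes varied about as much within groups as over the whole study. In topical controls it was 3.68%, 3.07%, 5.24%, 5.78% and 2.88% in libraries 1, 3, 5, 6 and 7. In topical cKO it was 3.56%, 7.25%, 2.67%, 7.49% and 2.96% in libraries 2, 3, 4, 5 and 7. Both groups thus held libraries above 5% and libraries below 4%. In systemic controls the share was 2.45%, 5.94%, 1.87%, 3.15% and 6.42% in libraries 1, 3, 4, 5 and 6. In systemic cKO it was 6.03%, 2.45%, 5.28%, 6.05% and 5.28% in libraries 2, 4, 5, 6 and 7. Here too the groups overlapped. The Wilson 95% interval of a library's share was at most 0.0274 percentage points wide, covering counting error only, so these differences between libraries were far larger than counting error. Group means were 4.13 ± 1.31% in topical controls, 4.79 ± 2.38% in topical cKO, 3.97 ± 2.08% in systemic controls and 5.02 ± 1.48% in systemic cKO (SD, n = 5 each). The cKO mean was higher by 0.66 percentage points in the topical groups and by 1.05 in the systemic groups, in both cases less than the SD within the groups. Between group medians the topical difference was -0.12 points, with the opposite sign, and the systemic difference was 2.13. A sum over members was given no test.

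**Figure D2:**
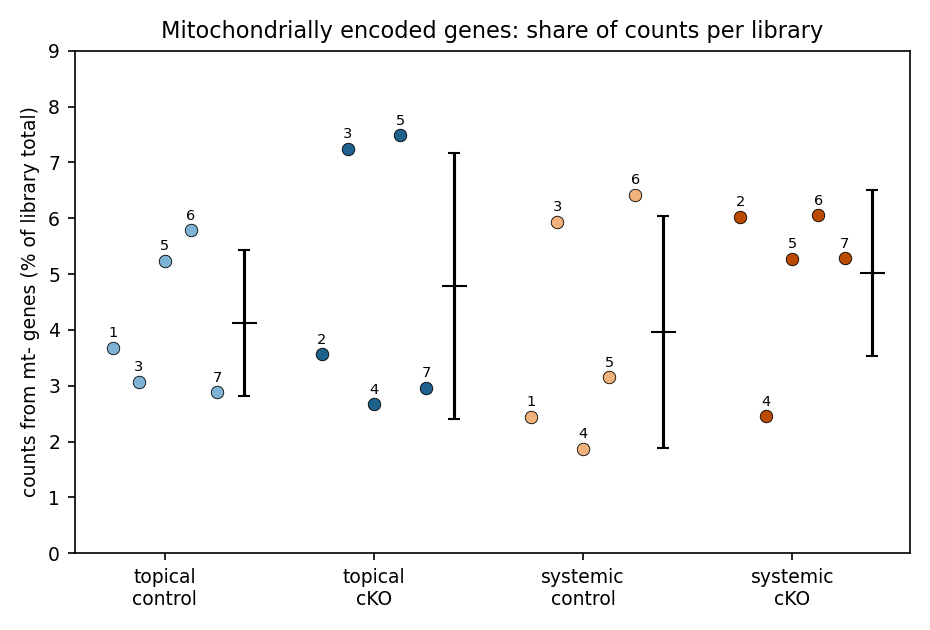
Share of all counts that came from the 13 mitochondrially encoded genes, in percent of the library total, for each library in the 4 groups; numbers beside points are library numbers, and bars give the group mean ± SD. Of the 20 points 10 lie at 5.24% or above and 10 at 3.68% or below, and every group has points on both sides.

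The shares fell into a higher and a lower set of 10 libraries each, with none between 3.68% and 5.24%. The higher set ran from 5.24% to 7.49% and held 2 topical controls, 2 topical cKO, 2 systemic controls and 4 systemic cKO. The lower set ran from 1.87% to 3.68%. Other features of the libraries are set beside this split, and their ranges overlapped between the sets. The 50 most abundant nuclear genes took 34.8% to 43.2% of counts in the higher set and 41.2% to 52.1% in the lower set. Their share has the same denominator as the mitochondrial share, so the shares are not independent of each other. TMM factors were 0.894 to 1.52 and 0.780 to 1.05. Totals were 11.6 to 31.8 M and 14.5 to 50.1 M counts. Transcripts of the Y chromosome were above 5 CPM in 6 of the higher and 4 of the lower libraries. The part of these features in the share was not tested. In bulk samples, fewer mitochondrial transcripts per cell and fewer cells rich in them cannot be told apart.

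The abundant members were high and low in the same libraries, and their proportions varied far less than their levels. Over the 20 libraries the SD of log2 CPM was 0.40 for mt-Co1, 0.41 for mt-Nd1, 0.44 for mt-Cytb and 0.46 for mt-Nd4. The SD of the log2 share of mitochondrial counts was only 0.09, 0.10, 0.07 and 0.09 for the same genes. mt-Co1 took 40.3% to 51.8% of mitochondrial counts, and mt-Cytb took 17.1% to 19.9%. The members with fewer counts varied more within the mitochondrial counts, with SDs of 0.25 for mt-Nd2, 0.24 for mt-Nd6, 0.30 for mt-Nd5 and 0.57 for mt-Nd3. Proportions of one total are not independent of each other, so these SDs describe the libraries and were not tested.

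Levels of mt-Co1 in every library show the common pattern. In topical controls 1, 3, 5, 6 and 7 its level was 16225, 16617, 21715, 25632 and 16235 CPM, and in topical cKO 2, 3, 4, 5 and 7 it was 16604, 27549, 15731, 25552 and 17719 CPM. In systemic controls 1, 3, 4, 5 and 6 it was 14311, 23928, 11177, 17405 and 20546 CPM, and in systemic cKO 2, 4, 5, 6 and 7 it was 30611, 12409, 23807, 25137 and 23291 CPM. All 4 groups overlapped. Group means were 19285 ± 4242, 20631 ± 5495, 17473 ± 5019 and 23051 ± 6622 CPM in the same order (SD, n = 5).

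mt-Nd6, the complex I gene read from the other strand, showed the same high and low libraries. Its annotated range overlaps that of mt-Nd5 by 14 bases on opposite strands, and whether counting used strand is not given in the sources used here. In topical controls 1, 3, 5, 6 and 7 its level was 136, 141, 168, 233 and 122 CPM, and in topical cKO 2, 3, 4, 5 and 7 it was 145, 275, 166, 269 and 149 CPM. In systemic controls 1, 3, 4, 5 and 6 it was 83.7, 183, 60.4, 102 and 166 CPM, and in systemic cKO 2, 4, 5, 6 and 7 it was 216, 119.9, 272, 247 and 169.6 CPM. The lowest values were those of systemic controls 4 and 1, and both pairs of genotype groups overlapped. For each 100 counts of mt-Nd5 there were 9.43 to 14.2 counts of mt-Nd6, and the 3 highest were those of systemic controls 4, 5 and 6.

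**Figure D3:**
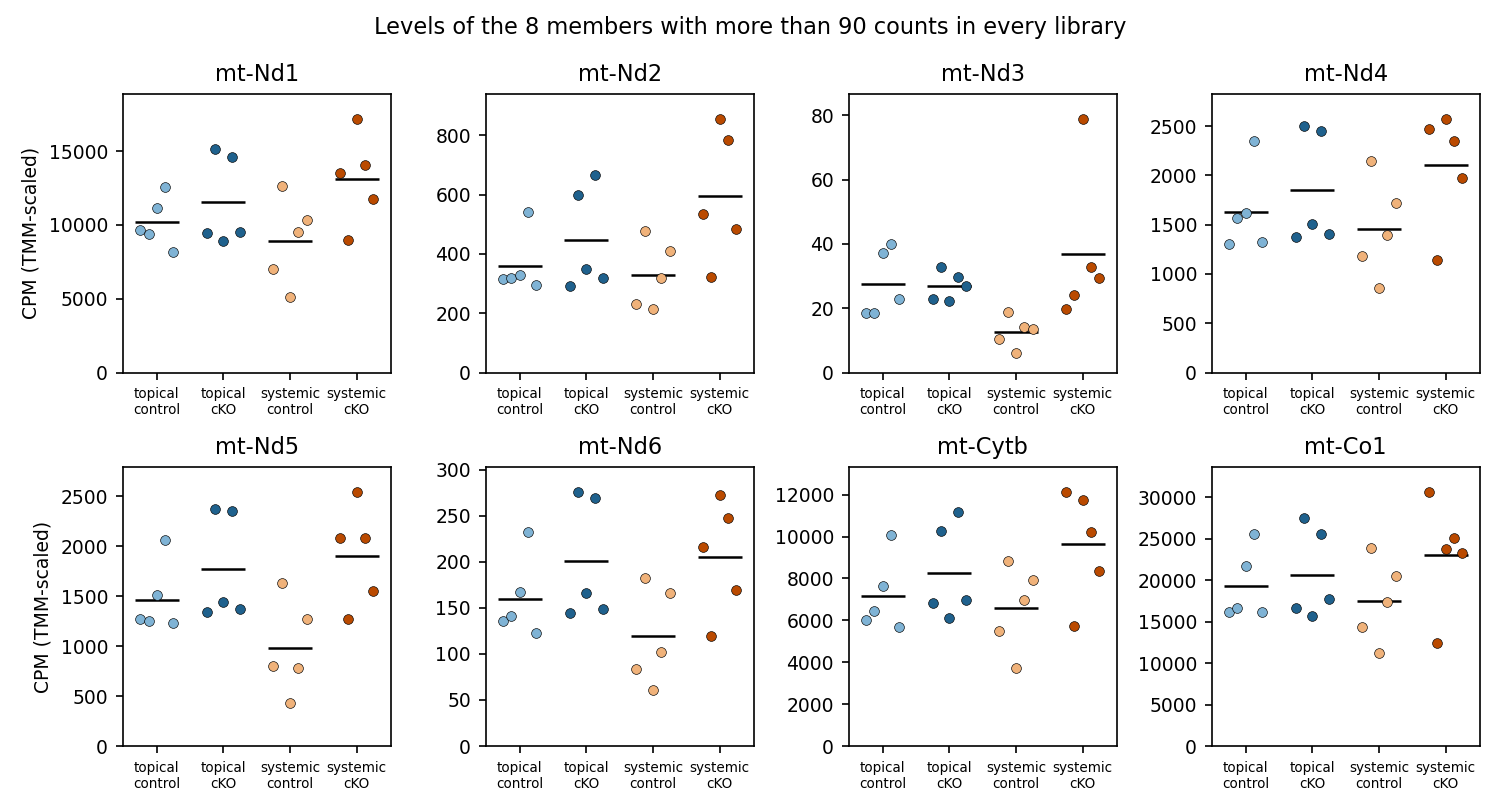
Level of the 8 well-counted members in every library, in TMM-scaled CPM on linear axes that start at 0; each point is 1 library and each line a group mean. Members other than mt-Nd3 share the same high and low libraries and overlap between groups, while mt-Nd3 lies between 5.99 and 18.9 CPM in systemic controls and at 19.6 CPM or above in systemic cKO.

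The first comparison asked whether deletion of Cyp11b1 with topical tamoxifen went with a change in these transcripts, and none passed the test. With edgeR's quasi-likelihood test and Benjamini-Hochberg adjustment over all genes, 0 of the 9 members past the filter were called, against 0.129% of all genes tested. At an unadjusted p under 0.05, 0 members were found, against 5.66% of all genes, and DESeq2's Wald test called 0 members as well. mt-Nd6 had a log2 fold change of 0.33 (SE 0.29), mt-Nd2 of 0.31 (SE 0.30) and mt-Nd5 of 0.28 (SE 0.31), each with an adjusted p of 0.997. Of the 9 members 8 were higher in cKO, with a median log2 difference of 0.21 beside 0.02 over all genes. The members share their high and low libraries, so this count of signs is not 9 separate observations. Leaving out single libraries moved the median from 0.08 (without topical cKO 5) to 0.34 (without topical control 6). It moved mt-Nd6 from 0.19 to 0.50 and mt-Nd2 from 0.12 to 0.51.

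With systemic tamoxifen 1 member, mt-Nd3, was higher in cKO, and the rest did not pass. mt-Nd3 encodes a small membrane subunit of complex I. Its level was 10.3, 18.9, 5.99, 14.3 and 13.6 CPM in systemic controls 1, 3, 4, 5 and 6 and 19.6, 24.2, 78.9, 32.7 and 29.6 CPM in systemic cKO 2, 4, 5, 6 and 7. The groups did not overlap, but the lowest cKO library (systemic cKO 2) lay just above the highest control (systemic control 3), and systemic cKO 5 stood far above the rest. Group means were 12.6 ± 4.81 and 37.0 ± 23.95 CPM (SD, n = 5). The log2 fold change was 1.55 (SE 0.34, adjusted p = 0.0178 by edgeR's quasi-likelihood test, higher in 5 of 5 cKO libraries than in every control). This was 1 of 9 members called, against 1.89% of all genes called in either direction and 1.36% called higher, and 1 member without overlap, against 1.02% of all genes higher without overlap.

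The call for mt-Nd3 did not hold under several alternatives. Without systemic cKO 5 the log2 fold change was 1.07 (adjusted p = 0.0747, edgeR), and without systemic control 4 it was 1.38 (adjusted p = 0.0587, edgeR). With library totals in place of TMM scaling it was 1.36 (adjusted p = 0.183, edgeR), and the groups then overlapped, with 22.5 CPM in systemic control 3 and 19.2 CPM in systemic cKO 2. Over all genes these settings gave 84, 88 and 51 calls in place of 235. Behind each value stood 91 to 559 counts in systemic controls and 223 to 2246 counts in systemic cKO, of a gene with a near-identical nuclear copy.

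The other 8 members were also higher in systemic cKO, without passing the test. For mt-Nd5 the fitted log2 difference was 0.95 (SE 0.31, adjusted p = 0.117, edgeR), with 984 ± 472 CPM in controls and 1905 ± 498 CPM in cKO. mt-Nd2 had one of 0.85 (SE 0.30, adjusted p = 0.160, edgeR), with 330.3 ± 113 CPM in controls and 597 ± 219.7 CPM in cKO. For both genes the groups overlapped. DESeq2's Wald test called mt-Nd5 (0.96, adjusted p = 0.0251) and not mt-Nd2 (0.86, adjusted p = 0.0623). With the number in the label as a replicate block, which the labels do not state to be a pairing, edgeR called mt-Nd5 (1.21, adjusted p = 0.0353), mt-Nd2 (1.02, adjusted p = 0.0368) and mt-Nd6. All 9 members were higher in cKO, from 0.40 for mt-Co1 to 1.55 for mt-Nd3, with a median of 0.74 beside -0.005 over all genes. The median value was that of mt-Nd4l (SE 0.64), which had 186 counts in all. At an unadjusted p under 0.05 there were 4 members, mt-Nd2, mt-Nd3, mt-Nd5 and mt-Nd6, against 15.3% of all genes.

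Whether the genotype difference itself depended on the route was tested as an interaction, and no member passed. Of 9 members 0 were called, against 0.25% of all genes, and at an unadjusted p under 0.05 there was 1 member, mt-Nd3, against 14.0% of all genes. For mt-Nd3 the genotype difference was larger in the systemic groups by 1.58 on the log2 scale (SE 0.47, adjusted p = 0.127, edgeR). Its level in topical controls 1, 3, 5, 6 and 7 was 18.5, 18.6, 37.3, 40.1 and 22.9 CPM and in topical cKO 2, 3, 4, 5 and 7 it was 23.0, 32.8, 22.2, 29.8 and 26.8 CPM, and these groups overlapped throughout, with a log2 fold change of -0.02 (SE 0.33). DESeq2's Wald test called mt-Nd3 here (1.59, adjusted p = 0.0439), and so did edgeR without systemic cKO 2 (1.73, adjusted p = 0.0350). The Wald test called more of all genes too, as given below. Calls of all genes without systemic cKO 2 are not given here, so that call stands without its background. mt-Nd5 followed with 0.67 (SE 0.43, adjusted p = 0.506, edgeR) and mt-Nd2 with 0.54 (SE 0.43, adjusted p = 0.594, edgeR).

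Between routes, mt-Nd3 was again the 1 member called, and only in controls. It was lower in systemic than in topical controls with a fitted difference of -1.11 on the log2 scale (SE 0.33, adjusted p = 0.0249, edgeR), with means of 12.6 ± 4.81 and 27.5 ± 10.4 CPM. The groups overlapped, since systemic control 3 at 18.9 CPM lay above topical controls 1 and 3. This was 1 of 9 members called, against 18.3% of all genes in either direction and 8.16% lower, so the share called among members was close to the background. At an unadjusted p under 0.05 there was the same 1 member, against 32.9% of all genes. The call was lost without topical control 5, topical control 6 or systemic control 4 (adjusted p = 0.0616, 0.0642 and 0.0644, edgeR). The fitted log2 difference of mt-Nd5 was -0.57 (SE 0.31, adjusted p = 0.197, edgeR) and that of mt-Nd6 was -0.43 (SE 0.30, adjusted p = 0.329, edgeR). All 9 members were lower, with a median of -0.19 beside 0.001 over all genes, but with library totals in place of TMM scaling 8 were lower and 1 higher. Leaving out topical control 6 gave 6 lower and 3 higher. Leaving out single libraries moved the median from -0.35 (without systemic control 3) to -0.05 (without systemic control 4, 8 lower and 1 higher). The dissociation genes given above did not overlap between routes in either genotype, and their part in the result was not tested. These comparisons share the systemic controls with the genotype comparison, so the lower mt-Nd3 in systemic controls enters both.

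Between routes in cKO no member passed the test. Of 9 members 0 were called, against 9.22% of all genes. At an unadjusted p under 0.05 there were 0 members, against 23.1% of all genes, and DESeq2's Wald test called 0. mt-Nd3 had a log2 difference of 0.46 (SE 0.33, adjusted p = 0.425, edgeR), mt-Nd2 of 0.42 (SE 0.30, adjusted p = 0.432, edgeR) and mt-Cytb of 0.22 (SE 0.28, adjusted p = 0.692, edgeR). The value of mt-Nd3 rested on systemic cKO 5 and was -0.02 without it (adjusted p = 0.976, edgeR). With TMM scaling 8 members were higher in systemic cKO (median 0.18), and with library totals 6 were higher and 3 lower. With TMM scaling, leaving out systemic cKO 5 gave 5 higher and 4 lower (median 0.07). Leaving out systemic cKO 4 gave 9 higher (median 0.32). That mt-Nd3 passed between controls and not here does not show that the route effects differ, which is the interaction given above.

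**Figure D4:**
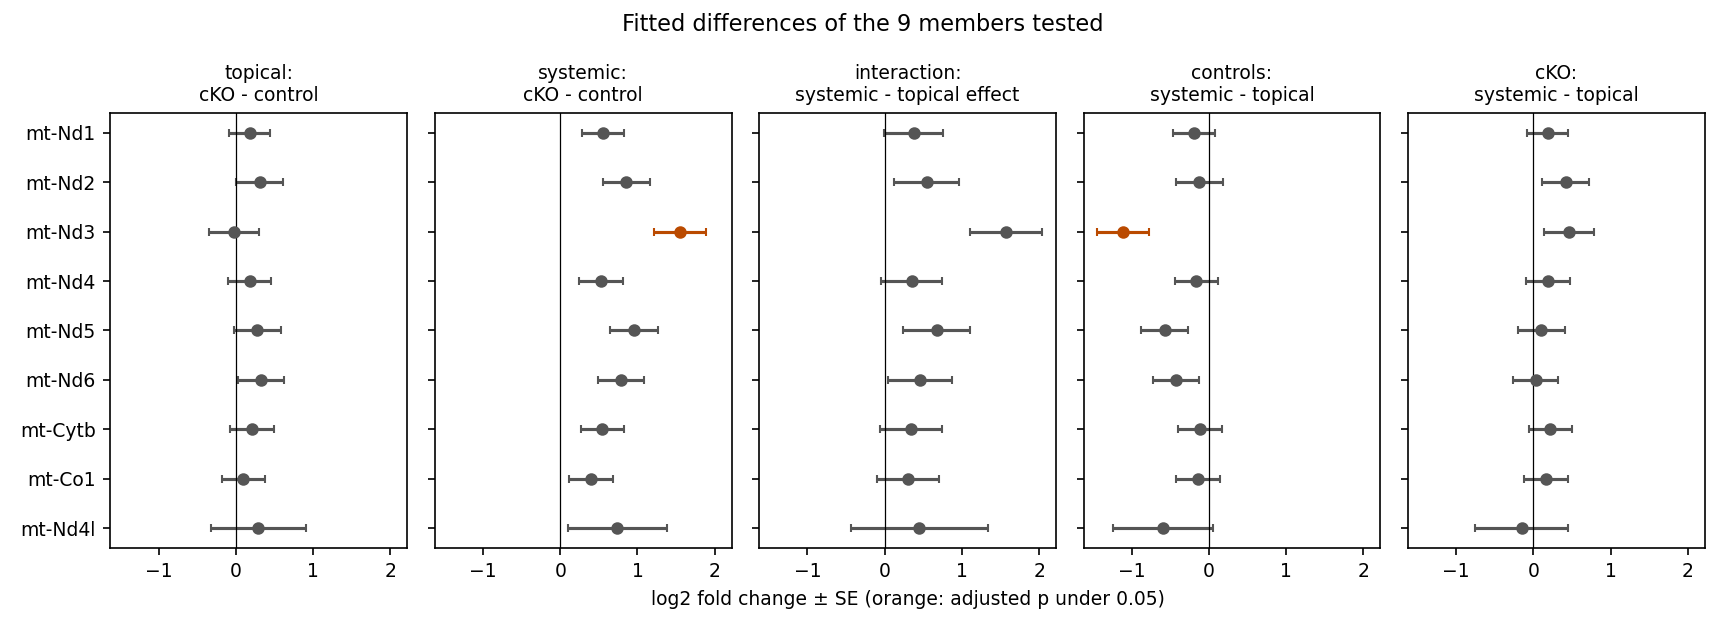
Fitted log2 fold change ± SE of the 9 members past the filter in the 5 comparisons, from 1 edgeR fit of all 20 libraries; orange marks an adjusted p under 0.05. The 2 orange points are mt-Nd3 at 1.55 in systemic cKO against control and at -1.11 in systemic against topical controls.

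Within the mitochondrial counts, the lowest values of mt-Nd3 were those of the 6 libraries with the most satellite-like transcripts. The 6 libraries above 50 CPM of satellite-like transcripts had 2.78 to 3.91 mt-Nd3 counts per 10000 mitochondrial counts, and the other 14 had 5.19 to 13.4. These ranges did not overlap, and on the same scale 0.145% of all genes were lower without overlap and 1.13% higher. Dividing by the mitochondrial total adds its spread to nuclear genes and removes shared spread from members. These shares are therefore not a like background for mt-Nd3. In TMM-scaled CPM the ranges of mt-Nd3 overlapped, with 5.99 to 19.6 in the 6 libraries and 18.5 to 78.9 in the other 14. Systemic cKO 2, the 1 knockout library among the 6, had 3.19, below systemic controls 1, 3, 5 and 6 and above systemic control 4, while the other 4 systemic cKO libraries had 5.95 to 13.4. The limit of 50 CPM and this comparison were chosen after the values were seen, and 5 of the 6 libraries are 1 group, so satellite-like transcripts and the systemic control group can scarcely be told apart. With the log2 level of these transcripts as a covariate, mt-Nd3 had a log2 fold change of 1.39 between systemic cKO and control (adjusted p = 0.756, edgeR) and of -0.94 between control groups (adjusted p = 0.457, edgeR). With this covariate 0 of all genes were called in the first comparison and 118 in the second, against 235 and 2277 without it.

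**Figure D5:**
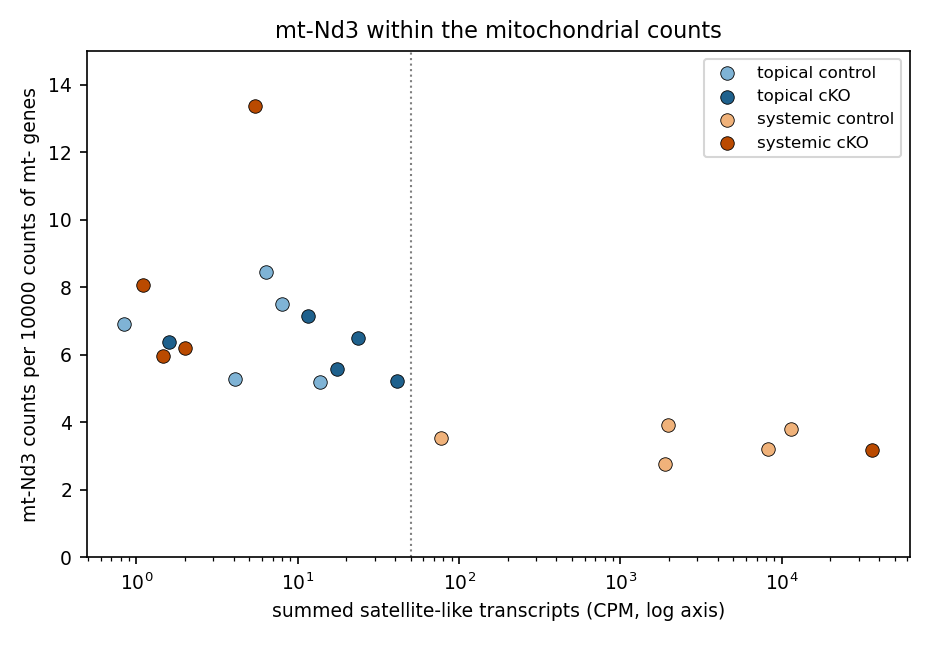
Counts of mt-Nd3 per 10000 counts of mitochondrially encoded genes (vertical axis) against the summed level of 12 satellite-like predicted genes (horizontal log axis, CPM of the library total), 1 point per library, coloured by group; the dotted line marks 50 CPM. The 6 libraries to its right lie at 2.78 to 3.91 and the 14 to its left at 5.19 to 13.4.

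Systemic controls also lay apart in the proportion of mt-Nd5 to mt-Nd4, both complex I genes, with at least 6473 and 12988 counts in every library. The ratio of their counts was 0.680, 0.762, 0.498, 0.561 and 0.742 in systemic controls 1, 3, 4, 5 and 6. In the other 3 groups it ran from 0.784 to 1.11, and systemic cKO 2 had 0.842. The systemic controls thus lay below all other 15 libraries, here without systemic cKO 2. The ratio was singled out after its values were seen and was not tested. mt-Nd1 to mt-Co1 spread most within systemic cKO, from 0.441 in library 2 to 0.725 in library 4.

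Of the nuclear genes that act on these transcripts or work beside their products, none passed the edgeR test with genotype. The lists followed were 4, chosen with earlier results of these data known: 17 genes of mitochondrial transcription and replication, 24 of mitochondrial RNA processing and decay, 8 regulators of mitochondrial biogenesis and 44 nuclear subunits of the same respiratory complexes. Of the 91 genes past the filter, edgeR called 0 in either genotype comparison, in the interaction or between routes in cKO. At an unadjusted p under 0.05 there were 4 in topical and 8 in systemic cKO against control, 5 in the interaction and 12 between routes in cKO. These are 4.4%, 8.79%, 5.49% and 13.2% of the 91, each below the share of all genes at this limit, which was 5.66%, 15.3%, 14.0% and 23.1%. The shares of all genes called were 0.129%, 1.89%, 0.25% and 9.22%. In the same order DESeq2's Wald test called 0, 1, 1 and 1. The genes it called were Top1mt, the mitochondrial DNA topoisomerase, in systemic cKO against control (-0.49, adjusted p = 0.0294) and in the interaction (-0.85, adjusted p = 0.00940), and Grsf1, which binds mitochondrial RNA, between routes in cKO (-0.55, adjusted p = 0.0419). Between control groups edgeR called 6 of the 91, or 6.59%, beside 18.3% of all genes. At an unadjusted p under 0.05 there were 31, or 34.1%, beside 32.9% of all genes. DESeq2's Wald test called 9 of the 91 there. Of all genes that test called 42 in topical and 563 in systemic cKO against control, where edgeR called 16 and 235. It also called more of all genes in the interaction, as given below. Its calls of all genes between routes are not given here. Polg, the mitochondrial DNA polymerase, was higher in systemic controls (0.60, SE 0.12, adjusted p = 0.00180, edgeR), with 39.0 ± 3.38 against 25.6 ± 2.21 CPM. Atp5g2, a subunit of the ATP synthase ring, was lower (-1.25, SE 0.26, adjusted p = 0.00256, edgeR), with 13.3 ± 5.25 against 31.4 ± 5.96 CPM. Twnk, the mitochondrial DNA helicase, was lower (-0.49, SE 0.15, adjusted p = 0.0236, edgeR). The other 3 that edgeR called were Top1mt and Polg2, which were higher, and Nsun4, which was lower.

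The nuclear subunits had lower values in systemic groups in both genotypes. Between controls 43 of 44 were lower with systemic tamoxifen, with a median of -0.45, but only Atp5g2 passed edgeR's test. Between cKO groups 41 of 44 were lower, with a median of -0.31 and 0 called. Of the 9 members 8 were higher there, or 5 without systemic cKO 5. In systemic cKO against control 38 of 44 were higher, with a median of 0.18 beside 0.74 for the members, and in topical cKO 25 of 44 were higher, with a median of 0.02 beside 0.21. With library totals in place of TMM scaling the topical count was 20 of 44 and the other counts kept their side. Medians over all genes were between -0.03 and 0.02. The subunits were measured in the same libraries, so a count of their signs is not 44 separate observations. Whether subunits from the 2 genomes differ from each other was not tested. The dissociation genes also separated by route. In cKO so did the immune list, with 7.44 to 12.7 CPM in topical and 16.7 to 33.7 in systemic libraries. The erythroid list had 0.889 to 2.04 and 3.45 to 7.25 CPM there. In controls both lists overlapped between routes. The part of these lists in the differences was not tested.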

How the data were processed

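The authors deposited 1 table of raw counts per gene with 1 column per mouse. Per the submitters' processing notes, STAR, featureCounts and the builds GRCm38 and mm10 were used. Versions, the handling of reads with several matches and the use of strand are not given in the sources used here. With 11.6 to 50.1 M counts a library, mt-Nd3 had 91 counts where it was lowest.

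All libraries were fitted at once with edgeR 4.0.16 in R 4.3.3 (TMM scaling, robust quasi-likelihood dispersion, 1 coefficient for each group). Of the genes, 12424 passed filterByExpr (at least 10 counts in enough libraries and 15 in all). Benjamini-Hochberg adjustment covered every gene tested, with calls at 0.05, and tests were two-sided. In counts simulated for the topical genotype comparison over 12424 genes, the fit called 169 of 200 genes changed by 1.5 on the log2 scale and 7 of the others. CPM of single members use TMM factors, and sums over lists use library totals.

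Members and gene lists were chosen with earlier results of these data known. In each comparison the text names the 3 members with the smallest unadjusted p; it gives every library for mt-Co1, mt-Nd6 and the member with the smallest p of all, mt-Nd3, and values of up to 3 called genes of the pathway lists. Other names, the ratios and the satellite-like split were chosen after values were seen. Planned values of rRNA genes were not analysed here.

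Nuclear copies were sought among annotated GENCODE M21 transcripts, by exact windows and local alignment. Same-numbered libraries were not taken as pairs, since correlations of their deviations from group means ran from -0.314 to 0.338. Alternatives were size factors or the Wald test of DESeq2 1.42.0, limma 3.58.1 voom, scaling from nuclear genes, 2 other filters, only the libraries compared, a replicate block and leaving out each library. Chosen after seeing the data were the satellite-like level or log2 library total as covariate and library totals without scaling. Planned for the share were nuclear counts as denominator, leaving out the 50 most abundant nuclear genes, and group medians.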

Additional observations from a re-analysis of the deposited data

Results flagged for a closer look

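In 3 sets of 5 values, from 2 groups, 1 library lay far from the other 4, with a gap to its nearest neighbour that took up most of the range. Among topical controls, mt-Nd2 was 543 CPM in library 6 and 296 to 328 CPM in the others. Among systemic cKO, the share of counts from the 13 genes was 2.45% in library 4 and 5.28% to 6.05% in the others. Among systemic cKO, mt-Nd3 was 78.9 CPM in library 5 and 19.6 to 32.7 CPM in the others. In all, 68 sets of 5 values were looked at in this way, and chance flags about 1 in 20 of them.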

How the results depend on the processing

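The 0 members called in topical cKO against control and between routes in cKO were 0 under every setting run. In systemic cKO against control the count of members called, 1 as reported, was 2 with DESeq2's Wald test (mt-Nd3 and mt-Nd5) and 0 in a fit of only the libraries compared, with the satellite-like covariate or with library totals without scaling. Leaving out single libraries gave 0 to 1, with 0 without systemic cKO 5 or systemic control 4. In the interaction the count, 0 as reported, was 1 with DESeq2's Wald test, and leaving out single libraries gave 0 to 1, with 1 without systemic cKO 2. Between routes in controls the count, 1 as reported, was 0 with all genes that had a count, with the satellite-like covariate and with library totals, and leaving out single libraries gave 0 to 1, with 0 without topical control 5, topical control 6 or systemic control 4. The log2 difference of mt-Nd3 between routes in cKO ran from -0.021 to 0.62 when single libraries were left out, with the lowest value without systemic cKO 5. In systemic cKO against control, calls over all genes, 235 as reported, moved too, to 563 with DESeq2's Wald test, 288 with the replicate block, 35 with only the libraries compared, 51 with library totals, 0 with the satellite-like covariate, 84 without systemic cKO 5 and 88 without systemic control 4. In the interaction they were 31 as reported, 315 with DESeq2's Wald test and 0 with the block or the satellite-like covariate, and between routes in controls 2277 as reported, 1829 with all genes that had a count, 959 with library totals and 118 with the covariate. Except where fewer libraries were used, the cause of these changes was not tested.

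With the number in the label as a replicate block, 4 members were called in systemic cKO against control (mt-Nd2, mt-Nd3, mt-Nd5 and mt-Nd6) and the counts in the other comparisons were as reported; the labels do not say that numbers mark pairs. Over the settings other than leaving out a library, the log2 fold change of mt-Nd3 in systemic cKO against control ran from 1.36 to 1.61, with adjusted p from 0.000717 to 0.756. Leaving out single libraries gave 1.07 to 1.74, with adjusted p from 0.00316 to 0.0747 by edgeR. With library totals the median over all genes moved to -0.11 in this comparison and to -0.16 in the interaction.

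With group medians in place of means, the differences in the share went from 0.66 to -0.12 percentage points in the topical and from 1.05 to 2.13 in the systemic genotype comparison, from 0.40 to 2.25 in the interaction, from -0.17 to -0.52 between routes in controls and from 0.23 to 1.72 in cKO. Each moved by less than the SD pooled over the groups compared, 1.74 to 1.98, but the interaction and the cKO route difference by more than the SD of systemic cKO alone. Without the 50 most abundant nuclear genes they were 1.01, 1.68, 0.66, -0.065 and 0.60. Leaving out single libraries gave -0.02 to 1.18 percentage points in the topical and 0.53 to 1.69 in the systemic genotype comparison, -0.13 to 1.07 in the interaction, -0.78 to 0.36 between routes in controls and -0.30 to 0.91 in cKO, so the systemic genotype difference alone kept its sign when single libraries were left out. For mt-Co2, mt-Atp8, mt-Atp6, mt-Co3 and mt-Nd4l the counts were too few for a difference to be detectable.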
